A study of Saccharomyces cerevisiae with 12 samples.

Results

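The 33 genes described here are the 32 budding yeast genes (Saccharomyces cerevisiae) with PRE, PUP, SCL1, RPT and RPN names that encode subunits of the proteasome, and RPN4, the gene of their transcriptional activator. They were taken by name from a table of read counts with 7127 features, and all 33 were found and tested among 6085 features with enough counts. By known structure, 7 genes belong to the alpha ring, 7 to the beta ring, 6 to the ring of ATPases, 4 to the rest of the base and 8 to the lid, while SEM1, a small lid subunit, is counted below with the associated factors. RNA was sequenced from cells with unaltered RPD3 (WT) and from cells with the genotype Rpd3-2SA, harvested in mid-log phase after growth on glucose (YPD, a rich medium) or on sucrose. The title of the series names the phosphorylation of Rpd3, a histone deacetylase, and its effect on expression in these sugars as the question. Each of the 4 groups had 3 libraries, called biological replicates in the design text, and the strain of all 12 is given as BY4741, a laboratory derivative of S288C. Which residues 2SA alters and how many clones of the mutant were used is not said in the labels, and RPD3 is still expressed, so the RPD3 count (88.2 to 150 CPM, which are counts scaled to library size, over the 12 libraries) does not check the genotype.

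The proteasome is the protease that destroys ubiquitin-tagged proteins in the cytosol and the nucleus. In its 20S core, rings of alpha subunits gate a chamber of beta subunits, of which some carry the proteolytic sites, and the 19S particle on top binds, unfolds and feeds in the substrate. In yeast, the zinc finger protein Rpn4 binds a short element, called PACE, before many of these genes, and Rpn4 is itself a short-lived substrate of the proteasome, so that the pair form a feedback loop.

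The element was read from the R64 reference genome, which is the sacCer3 build that the files use, because it is the sequence feature that most of the subunit genes share. PACE was searched as GGTGGCAAA on both strands of the 300 bases before each start codon. It was found before 27 of 32 subunit genes, and before 72 of 5989 protein-coding genes, or 1.202%. Each of the 27 windows held 1 copy, 19 on the strand of the gene and 8 on the other strand. Between 75 bases (RPT6) and 174 bases (PUP3) separated the element from the start codon, with a median of 111. The exact letters were not in the windows of PRE5, PUP1, RPN8, RPN10, RPN13 and RPN4, which says nothing of variants of the element. A match describes the sequence and is not evidence of binding in these cells. The stretches that follow come from 1 or 2 genes of each structural group, read 5′ to 3′ on the strand of the gene, with PACE in capitals. They show the nearest copy (RPT6), the farthest (PUP3) and a copy on the other strand (RPN12), beside 3 genes whose levels are described further on.
PRE8 (alpha ring, chrXIII:86836-86874, minus strand): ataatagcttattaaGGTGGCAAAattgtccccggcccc
PUP3 (beta ring, chrV:349506-349544, minus strand): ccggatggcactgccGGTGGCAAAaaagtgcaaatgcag
RPT6 (ATPase, chrVII:411347-411385, minus strand): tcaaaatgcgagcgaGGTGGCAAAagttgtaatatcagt
RPN1 (base, chrVIII:164833-164871, minus strand): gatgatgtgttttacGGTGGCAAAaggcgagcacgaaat
RPN9 (lid, chrIV:1322081-1322119, plus strand): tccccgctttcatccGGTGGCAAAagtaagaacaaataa
RPN12 (lid, chrVI:252393-252431, plus strand): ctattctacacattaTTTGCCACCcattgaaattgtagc

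**Figure D1:**
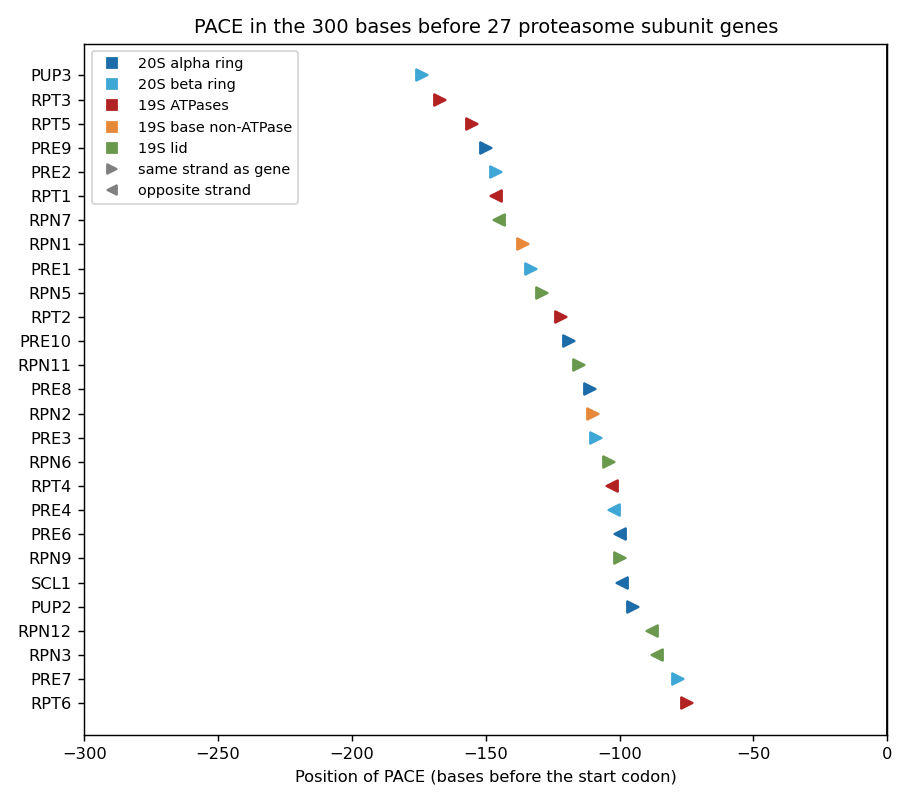
Position of PACE before the start codon (x axis, bases, 0 at the start codon) in the 27 subunit genes that have it (y axis), coloured by structural group, with a triangle pointing right for a copy on the strand of the gene and left for one on the other strand. All copies lie from 75 to 174 bases before the start codon.

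RPN4 (YDL020C, chromosome IV, 415113 to 416708, minus strand, 1 exon) has no PACE in this window, and its known regulators in yeast are the oxidative stress factor Yap1, the drug resistance factors Pdr1 and Pdr3 and the heat shock factor Hsf1. Their motifs were searched on both strands of the 600 bases before each start codon. The Pdr1 and Pdr3 letters TCCGTGGA occurred at 434 and 391 bases before RPN4 and in 1.30% of all 5989 windows. The Yap1 letters TTACTAA occurred at 367 bases before RPN4 and in 13.7% of windows, those of 5 subunit genes among them. The Hsf1 pattern GAANNTTCNNGAA, with N for any base, occurred at 335 and again at 8 bases before RPN4 and in 1.70% of windows. Another Pdr1 and Pdr3 form, TCCGCGGA, was not before RPN4 and was in 0.735% of windows. None of the 32 subunit genes had either Pdr form or the Hsf1 pattern, which is near the background at shares this low. The motifs were chosen as those of known regulators of RPN4, so their presence before it does not set it apart. The stretch that holds 4 of the matches is shown on the strand of RPN4, with, in order, the first Pdr form, its reverse complement, the Yap1 letters and the reverse complement of the Hsf1 pattern in capitals.
RPN4 (chrIV:417034-417160, minus strand): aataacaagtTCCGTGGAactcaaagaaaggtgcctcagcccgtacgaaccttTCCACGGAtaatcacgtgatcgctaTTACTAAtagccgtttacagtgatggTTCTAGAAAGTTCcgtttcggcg

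The subunit genes were well expressed and unequal in level. Levels per length, as CPM per kilobase and mean of all 12 libraries, ran from 59.6 in RPN9 to 989 in RPN5, both lid genes, with a median of 386 over the 32 subunit genes against 53.4 over all features tested. Although the subunits of the assembled particle are present in equal numbers, the ratio of highest to lowest level was 16.6. The alpha ring was the most even group, from 261 (PRE10) to 597 (PRE9), a ratio of 2.29. In the beta ring the gene of the chymotrypsin-like subunit, PRE2, had 928, the gene of the caspase-like subunit, PRE3, 254, and the gene of the trypsin-like subunit, PUP1, 163. The lowest beta ring gene, PRE4, had 140. The 6 ATPase genes, whose ring unfolds the substrate, lay between 277 (RPT6) and 730 (RPT1). The ubiquitin receptor gene RPN13 had 718 and that of another receptor, RPN10, 230. RPN4 had 78.4 CPM per kilobase, a level between the lowest lid genes, RPN9 and RPN3 (107). RPT1 overlaps another annotated feature, YKL145W-A, so that its reads may not all be its own, and no member has a near-identical copy elsewhere in the genome.

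**Figure D2:**
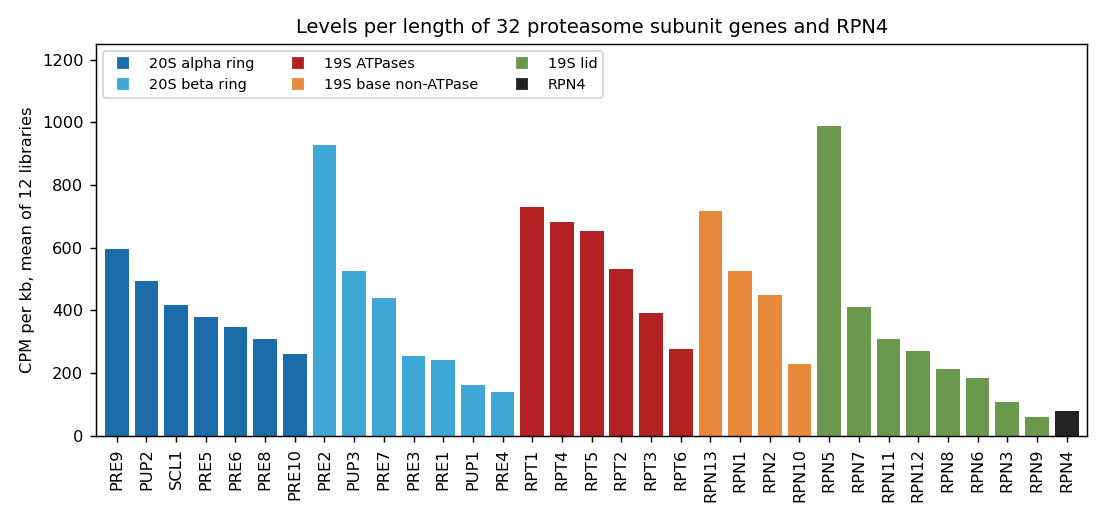
Level of each gene per length (y axis, CPM per kilobase, mean of 12 libraries, bars from 0), grouped and coloured by structural group and ordered by level within it. RPN5 and PRE2 are the highest and RPN9 is the lowest, with RPN4 at 78.4.

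Library totals lay between 20775911 and 25360037 counts, and the lowest count of a member in any library was 1271. The genes of a-type haploid cells were detected (STE2 at 92.5 to 261 CPM), and of the alpha-specific genes STE3 stayed at 4.74 CPM or less while SAG1 lay between 39.1 and 73.2. Of the marker genes of BY4741, MET17 had 0 counts and LEU2 1 count in all libraries together, but URA3, which that strain lacks, had 252 to 491 CPM in all 12 libraries, against the label, and HIS3, of which it lacks a part, had 32.2 to 69.4 CPM. The 2 sucrose libraries numbered 2 stood apart: ribosomal protein genes took 3.86 and 5.57% of their counts while the rest of the sucrose group had 9.28 to 12.7% and the glucose libraries 13.6 to 16.7%. The 18 general stress genes, such as HSP12 and CTT1, took 3.66 and 2.09% there, and 0.594 to 1.15% in the remaining 4 libraries from sucrose. In glucose the libraries numbered 1 had a stress share of 1.09% (WT) and 1.12% (2SA), against 0.442 to 0.47% in the others.

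In each group, 1 library had RPN4 at its highest and the median of the subunit genes at its lowest. Single subunits did not all follow the median. In WT sucrose 2, 13 of 32 were above their own mean over the 12 libraries. On the log2 scale, as the deviation from each gene's own mean over 12 libraries, the median of the 32 subunits was −0.21, 0.08 and −0.04 in the WT glucose libraries 1 to 3, while RPN4 was at 0.63, 0.10 and −0.29. In 2SA in glucose the subunit medians were −0.24, −0.02 and −0.08, and RPN4 was at 0.35, 0.15 and −0.33. WT sucrose libraries had subunit medians of 0.22, −0.07 and 0.18 with RPN4 at −0.03, 0.87 and −0.45. In 2SA in sucrose the subunit medians were 0.16, −0.09 and 0.14, with RPN4 at −0.45, 0.10 and −0.64. In 4 of 4 groups, the library with the highest RPN4 was also the one with the lowest subunit median and the highest share of general stress genes. These libraries were number 1 in glucose and number 2 in sucrose, and since within a sugar libraries that share a number deviate together (r = 0.545 to 0.847 over all features), the 4 groups are not 4 independent cases. Between the other 2 libraries of each group, RPN4 and the subunit median were higher in the same library in all 4 groups. The part of the stress genes and of the ribosomal protein share in this pattern was not tested.

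**Figure D3:**
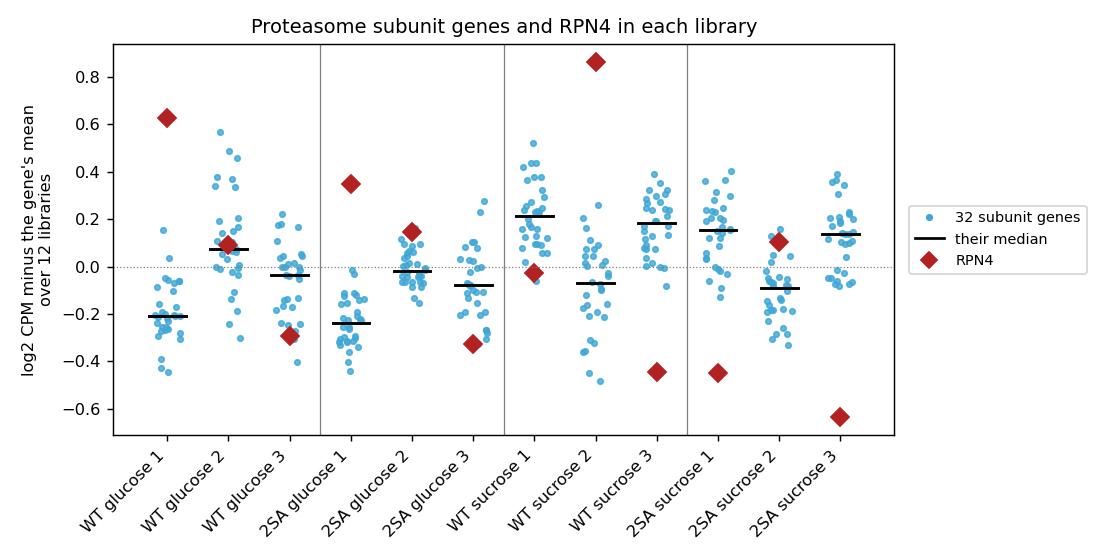
Log2 CPM of the 32 subunit genes (points), their median (line) and RPN4 (diamond) in each of the 12 libraries (x axis), as the difference from the gene's own mean over all libraries (y axis). RPN4 is highest of its group in WT glucose 1, 2SA glucose 1, WT sucrose 2 and 2SA sucrose 2, where the subunit median is lowest of its group.

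Across all 12 libraries the subunit genes were among the steadier features. The ratio of the highest to the lowest library was 1.26 to 2.03 over the 32 genes, with a median of 1.57 and 31 of 32 under 2, where the median of all features tested was 2.06. The subunit genes all lie above the median level per length of all features, and features of similar level were not compared. RPN4 varied more, with a ratio of 2.83, and 71.1% of features had a smaller ratio than that. All 32 subunit genes together took between 1.17 and 1.71% of a library's counts.

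The comparison of 2SA with WT asks whether the mutant of Rpd3 changes these genes. No proteasome gene was called in glucose, in sucrose or for the mean of both sugars, where a call needs an adjusted p under 0.05 in edgeR's quasi-likelihood test and a change over 1.5-fold in either direction. Of all features, 0.0822% were called in glucose, 0.0657% in sucrose and 0.624% for the mean, so 0 of 33 is near the background. None of the 33 had an unadjusted p under 0.05 in edgeR in these comparisons, where 2.81, 3.98 and 6.56% of features did, and DESeq2 called none either (0.509, 0.756 and 1.69% of all features). With a block for each pair, formed by a WT and a 2SA library that share number and sugar, edgeR again called no member (0.477, 1.84 and 2.5% of all features). With that block RPN4 alone had an unadjusted p under 0.05, in sucrose and for the mean, where 10.5% of features did in glucose, 21.2% in sucrose and 24.1% for the mean. Nor was any member's WT range apart from its 2SA range, against 7.35% of features in glucose, 6.26% in sucrose and 0.92% over both sugars.

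The size of any genotype difference was bounded for most members. The members' median log2 difference of 2SA from WT was −0.07 in glucose, −0.04 in sucrose and −0.06 for the mean, beside 0.01, −0.003 and 0.01 over all features tested. The values were below 0 for 26 of 33 members in glucose, for 26 in sucrose and for 30 in the mean. Of all 6085 features, 2882, 3081 and 2965 were below 0. Many subunit genes moved together between libraries, though not all did. From 0 to 22 of the 32 were above their own mean in a glucose library, and from 6 to 31 in a sucrose library. These counts are therefore not of separate cases. With the block the 95% interval of the difference stayed within 1.5-fold either way for 33 of 33 members in glucose and 32 of 33 in sucrose, the exception being RPN4, against 80.1 and 74.5% of all features. Without the block the numbers were 26 and 27 of 33, against 45.1 and 42.0%. By group, the mean difference over both sugars had a median of −0.06 in the alpha ring, −0.06 in the beta ring, −0.10 in the ATPases, 0.003 in the rest of the base and −0.05 in the lid. The largest subunit difference in glucose was that of RPT1, −0.18 ± 0.23 (SE, 3 libraries per group, edgeR adjusted p = 1.0), and in sucrose that of RPT2, −0.18 ± 0.22 (adjusted p = 0.998). These are ATPase genes, RPT2 being the one that helps to open the gate of the core.

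**Figure D4:**
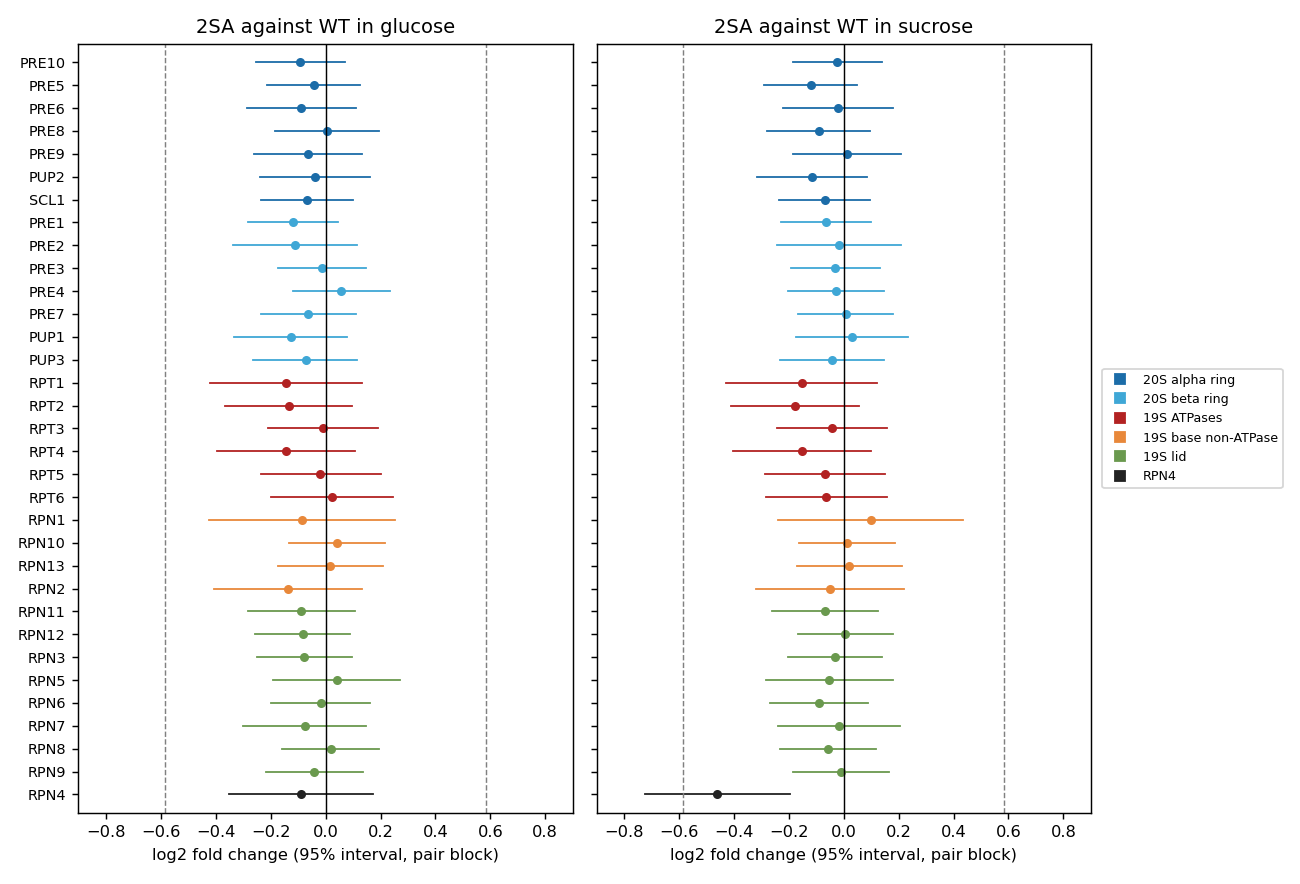
Log2 fold change of 2SA against WT (x axis) for each of the 33 genes (y axis) in glucose (left) and sucrose (right), from the fit with a block per pair of libraries. Points are estimates, bars 95% intervals, dashed lines mark 1.5-fold, and of all bars only that of RPN4 in sucrose crosses one.

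RPN4 had the largest genotype difference of the 33, and it was in sucrose. Its levels there were 117, 217 and 87.6 CPM in WT libraries 1 to 3 and 87.5, 128 and 76.8 CPM in 2SA (141 ± 68.0 and 97.3 ± 26.9, SD, n = 3). Library 2 was the highest in both genotypes, and the groups overlapped, but 2SA was the lower in 3 of 3 pairs. The log2 difference was −0.53 ± 0.35 (SE, edgeR adjusted p = 0.998), with a 95% interval from −1.30 to 0.24. Leaving out single libraries moved it between −0.76 and −0.07, the latter without WT sucrose 2. With the pair block it was −0.46 ± 0.12, with an interval from −0.72 to −0.20, and the adjusted p of edgeR, 0.0737, missed the threshold. Without the libraries numbered 2 the blocked difference was −0.30 (edgeR adjusted p = 0.39). Some general stress genes differed in the same comparison. With the block 5 of 18 were called lower in 2SA in sucrose and none higher, with a median of −0.54. Of all 6085 features, 98 were called lower and 14 higher in that fit. Without the block none of the 18 was called, with a median of −0.65. The part of these genes in the RPN4 value was not tested.

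In glucose RPN4 had 184, 127 and 97.3 CPM in WT and 152, 132 and 95 CPM in 2SA (136 ± 44.1 and 126 ± 28.8, SD, n = 3). Library 1 was the highest of each group, the ranges overlapped, and 2SA was the lower in 2 of 3 pairs. The log2 difference was −0.11 ± 0.35 (edgeR adjusted p = 1.0), or −0.09 ± 0.12 with the block (adjusted p = 0.832), and it was 0.17 without WT library 1. For the mean of both sugars 2SA was lower in 5 of 6 pairs, with a log2 difference of −0.27 ± 0.08 with the block (edgeR adjusted p = 0.085), and of −0.32 without a block, which became −0.09 without WT sucrose 2 and −0.18 without WT glucose 1. The proteins that drive RPN4 are known from responses to heat, oxidants and drugs. None of their genes (HSF1, YAP1, PDR1 and PDR3) was called in 2SA against WT. Of all features 0.0822% were called in glucose, 0.0657% in sucrose and 0.624% for the mean. The median difference of these genes was −0.14 in sucrose, with values from −0.21 to 0.12, and −0.07 for the mean of both sugars. The part of these factors in the RPN4 value was not tested.

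Sucrose was compared with glucose to see the response to the carbon source, within WT, within 2SA and as the mean of both, which all use the libraries of the genotype comparisons again. No proteasome gene was called in edgeR, against 3.43% of all features in WT, 1.89% in 2SA and 12.5% for the mean, and DESeq2 called none either (8.91, 5.7 and 15.5%). At an unadjusted p under 0.05 edgeR had 2 members in WT, 3 in 2SA and 7 for the mean, beside 24.0, 18.1 and 36.3% of features. The members' median was 0.15 on the log2 scale in WT, 0.14 in 2SA and 0.15 for the mean, where all features had 0.04, 0.02 and 0.03. Of 33 members, 29 were above 0 in WT, 30 in 2SA and 29 for the mean, beside 3324, 3231 and 3268 of 6085 features. These too are not separate cases, since many of the subunit genes moved together between libraries. Counts are relative to the library, and whole cultures were sequenced, so a change in every cell cannot be told apart from one in some of the cells.

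With no fold minimum, 3 of 33 members, PRE8, RPN9 and RPN3, had an edgeR adjusted p under 0.05 for the mean difference and were higher in sucrose by less than 1.5-fold. Of all features 11.9% were higher at that threshold, so this count is no more than the background. PRE8 (YML092C, chromosome XIII, 85987 to 86739) encodes an alpha ring subunit. It had 220, 186 and 186 CPM in WT in glucose, 201, 209 and 183 CPM in 2SA in glucose, 329, 241 and 262 CPM in WT in sucrose and 294, 226 and 260 CPM in 2SA in sucrose. All 6 sucrose libraries were above all 6 glucose libraries, and libraries 2 were the lowest of each sucrose group. The log2 difference was 0.45 ± 0.11 (SE, edgeR adjusted p = 0.0209). It lost the threshold without WT glucose 2, WT glucose 3, 2SA glucose 3 or 2SA sucrose 1 (adjusted p from 0.0501 to 0.0547) and without the 4 libraries numbered 2 (0.0583).

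In the alpha ring all 7 genes lay above 0 in sucrose, with a median of 0.15. Values ran from 0.10 (PRE6 and PRE9) to that of PRE8. In edgeR 2 of the 7, PRE8 and PUP2, had an unadjusted p under 0.05, beside 36.3% of all features. PUP2 was at 0.36 ± 0.13 (edgeR adjusted p = 0.0697). PRE6 (YOL038W, chromosome XV, 255337 to 256101) had 214, 274 and 305 CPM in WT in glucose, 198, 272 and 276 CPM in 2SA in glucose, 292, 211 and 327 CPM in WT in sucrose and 251, 230 and 335 CPM in 2SA in sucrose. Its ranges in the 2 sugars overlapped, with low values in glucose 1 and sucrose 2 of both genotypes.

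The beta ring had a median of 0.12, with 6 of 7 genes above 0. PRE3 (YJL001W, chromosome X, 435163 to 435926, 2 exons), of the caspase-like site, had 141, 162 and 137 CPM in WT in glucose, 146, 155 and 135 CPM in 2SA in glucose, 220, 158 and 176 CPM in WT in sucrose and 209, 157 and 176 CPM in 2SA in sucrose. Libraries 1 and 3 in sucrose were above all glucose libraries, while libraries 2 lay among them. Its log2 difference of 0.32 ± 0.11 missed the threshold (edgeR adjusted p = 0.0676). PUP1 (YOR157C, chromosome XV, 630966 to 631751), of the trypsin-like site, had the lowest value of the ring, −0.08 ± 0.14 (edgeR adjusted p = 0.704). It had 141, 142 and 128 CPM in WT in glucose, 115, 137 and 126 CPM in 2SA in glucose, 155, 90.6 and 126 CPM in WT in sucrose and 149, 104 and 121 CPM in 2SA in sucrose. Libraries 1 were the highest and libraries 2 the lowest in sucrose. PRE2, of the chymotrypsin-like site, was at 0.01 ± 0.17 (adjusted p = 0.97), and the differences between these 3 genes of catalytic subunits were not tested.

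In the 19S base all 6 ATPase genes were above 0, with a median of 0.12. None had an unadjusted p under 0.05 in edgeR, beside 36.3% of all features. RPT5 (YOR117W, chromosome XV, 545029 to 546333) had 752, 930 and 635 CPM in WT in glucose, 772, 814 and 678 CPM in 2SA in glucose, 1120, 865 and 882 CPM in WT in sucrose and 1110, 809 and 830 CPM in 2SA in sucrose. Libraries 1 in sucrose were above the rest and the other ranges overlapped, for a log2 difference of 0.30 ± 0.15 (edgeR adjusted p = 0.179). RPT1 (YKL145W, chromosome XI, 174213 to 175616) was at 0.06 ± 0.16 (adjusted p = 0.81) and at −0.005 without WT glucose 1. It had 849, 1420 and 925 CPM in WT in glucose, 824, 1040 and 961 CPM in 2SA in glucose, 1190, 908 and 1220 CPM in WT in sucrose and 1100, 892 and 980 CPM in 2SA in sucrose. WT glucose 2 was the highest of its 12 libraries.

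Of the other base genes, the scaffolds RPN1 and RPN2 had the values −0.14 ± 0.18 and −0.04 ± 0.20 (SE), and the ubiquitin receptors RPN10 and RPN13 had 0.16 ± 0.14 and 0.15 ± 0.10, none with an edgeR adjusted p under 0.05. RPN1 (YHR027C, chromosome VIII, 161730 to 164711) had 1340, 2290 and 1490 CPM in WT in glucose, 1320, 1610 and 1810 CPM in 2SA in glucose, 1480, 1130 and 1740 CPM in WT in sucrose and 1510, 1360 and 1740 CPM in 2SA in sucrose. WT glucose 2 was the highest and WT sucrose 2 the lowest, and RPN1 was the subunit gene with the widest range over libraries. RPN10 (YHR200W, chromosome VIII, 499079 to 499885) had 152, 161 and 207 CPM in WT in glucose, 153, 184 and 197 CPM in 2SA in glucose, 191, 159 and 234 CPM in WT in sucrose and 191, 162 and 236 CPM in 2SA in sucrose, with overlapping ranges.

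The lid had the highest group median, 0.22, and all 8 genes were above 0. Of these, 4 had an unadjusted p under 0.05 in edgeR, beside 36.3% of all features. RPN9 (YDR427W, chromosome IV, 1322205 to 1323386) had 59.3, 65.0 and 70.6 CPM in WT in glucose, 60.3, 66.0 and 62.9 CPM in 2SA in glucose, 82.2, 72.3 and 76.7 CPM in WT in sucrose and 80.1, 72.2 and 77.4 CPM in 2SA in sucrose. The 6 sucrose libraries were all above the 6 glucose libraries, by 0.26 ± 0.08 on the log2 scale (edgeR adjusted p = 0.0392). RPN5 (YDL147W, chromosome IV, 190924 to 192261) had 972, 1380 and 1110 CPM in WT in glucose, 1050, 1270 and 1210 CPM in 2SA in glucose, 1430, 1510 and 1580 CPM in WT in sucrose and 1460, 1460 and 1440 CPM in 2SA in sucrose. Its sugars did not overlap either, but its difference of 0.35 ± 0.13 had an edgeR adjusted p of 0.0835. PRE8, RPN5 and RPN9 were the 3 of 33 members with all sucrose libraries on top, against 7.26% of all features. RPN9 kept an adjusted p under 0.05 only without WT glucose 3 or WT sucrose 2 when single libraries were left out.

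RPN3 (YER021W, chromosome V, 196948 to 198519) had 160, 167 and 138 CPM in WT in glucose, 144, 159 and 137 CPM in 2SA in glucose, 195, 199 and 166 CPM in WT in sucrose and 195, 181 and 171 CPM in 2SA in sucrose. WT glucose 2 lay just above WT sucrose 3, so the sugars overlapped, and the edgeR adjusted p of its difference, 0.29 ± 0.09, was 0.04996, just under the threshold and over it without most single libraries. RPN11 (YFR004W, chromosome VI, 153393 to 154313), the deubiquitinating enzyme of the lid, had the lowest value of the group, 0.11 ± 0.11 (edgeR adjusted p = 0.508). It had 243, 324 and 274 CPM in WT in glucose, 226, 277 and 287 CPM in 2SA in glucose, 297, 282 and 321 CPM in WT in sucrose and 264, 273 and 324 CPM in 2SA in sucrose, so the sugars overlapped. Within 1 genotype, 5 members had all 3 sucrose libraries above all 3 glucose libraries in WT and 7 in 2SA, where 14.2% of features did in each.

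The response of RPN4 to sucrose was not called and had a wide error. Its log2 difference was 0.04 ± 0.35 in WT, −0.38 ± 0.35 in 2SA and −0.17 ± 0.25 for the mean (SE, edgeR adjusted p = 0.952, 0.621 and 0.67), and its 95% interval for the mean, from −0.71 to 0.38, was the widest of the 33 and held the subunit median of 0.15. Its value in WT was −0.42 without WT sucrose 2, the library in which RPN4 was highest.

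Without the 4 libraries numbered 2 the subunit genes were more even in sucrose. All 32 lay above 0 in WT, in 2SA and for the mean, with a median of 0.31, 0.30 and 0.30 on the log2 scale, while all features had medians of 0.004, 0.008 and 0.006. For the mean the values ran from 0.12 (PUP1) to 0.54 (PRE8), and RPN4 was at −0.52 ± 0.24 (SE, edgeR adjusted p = 0.253). With 2 libraries per group left, edgeR called no member (4.12% of all features for the mean), and 15 of 33 had an unadjusted p under 0.05 against 24.2% of features. The lowest adjusted p of a member was that of PRE8, 0.0583. The sucrose libraries that were left out hold the lowest ribosomal protein and highest stress shares in sucrose. The glucose libraries that were left out had the highest subunit medians of their groups, 0.08 in WT and −0.02 in 2SA, as deviations from each gene's own mean. The part of these shares and of the glucose libraries in the shift was not tested.

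**Figure D5:**
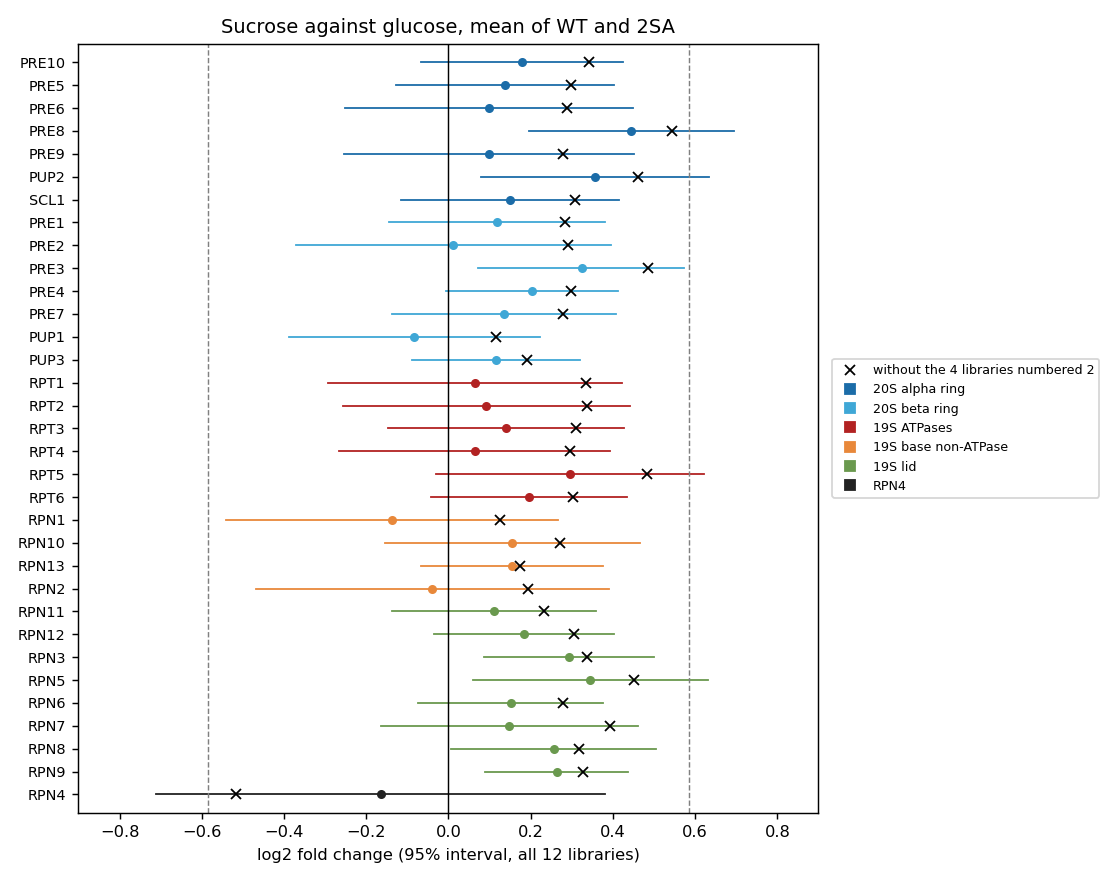
Log2 fold change of sucrose against glucose (x axis), mean of WT and 2SA, for each of the 33 genes (y axis). Points with bars are estimates with 95% intervals from all 12 libraries, crosses are estimates without the 4 libraries numbered 2, and dashed lines mark 1.5-fold. Without those libraries every subunit gene moves to the right and lies above 0, and RPN4 moves left to −0.52.

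The presence of PACE was set beside the differences. The median difference of sucrose from glucose, mean of both genotypes, was 0.15 for the 27 with the element and 0.15 for the 5 without it, and for 2SA against WT it was −0.06 and −0.03. The 45 other genes with PACE, among them CDC48 and UBI4, had a median of 0.09 in sucrose, and 3 of them were called higher and 1 lower in edgeR, where 12.5% of all features were called. These were ACS1, of acetyl-CoA synthesis, at 2.16 ± 0.27, DOC1, of the anaphase-promoting complex, at 0.63 ± 0.12, UBI4 at 0.73 ± 0.19 and, lower, the mannosyltransferase gene PMT1 at −0.67 ± 0.15, chosen by name after their values were seen. Some of the 45 genes were matched on the same copy as a neighbouring subunit gene, PMT1 on that of RPN6, so the 45 do not all have a copy of their own. The difference between genes with and without the element was not tested.

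The sucrose response did not differ detectably between the genotypes. For the interaction, which is the response in 2SA minus that in WT, edgeR called 0 of 33 members and 0.0% of all features, and 0 members and 0.164% of features had an unadjusted p under 0.05. DESeq2 and the pair block called none either, and with the block RPN4 alone had an unadjusted p under 0.05 (4.96% of features). The interaction of RPN4 was −0.42 ± 0.50 (SE) without a block and −0.37 ± 0.16 with it (edgeR adjusted p = 1.0 and 0.974), and without WT sucrose 2 it was 0.05. For the 32 subunits the values lay between −0.10 and 0.20 with a median of 0.01.

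Wider parts of the pathway held 5 calls among 44 genes for the mean sucrose difference, where 12.5% of all features were called. Of 18 assembly and associated factors, 1 was called higher in sucrose for the mean of both genotypes and none lower, with a median of 0.19. It was SPG5, which acts on the proteasome in stationary phase and had 58.0, 62.4 and 79.6 CPM in WT in glucose, 97.1, 79.2 and 74.2 CPM in 2SA in glucose, 108, 215 and 156 CPM in WT in sucrose and 139, 231 and 115 CPM in 2SA in sucrose. All sucrose libraries were above all glucose libraries, with libraries 2 the highest, by 1.11 ± 0.21 on the log2 scale (edgeR adjusted p = 0.00607). The core maturation factor UMP1 was at 0.31 ± 0.18 (adjusted p = 0.239), and the base chaperone NAS6 was higher by 0.49 ± 0.08, under 1.5-fold (edgeR adjusted p = 0.0041).

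Of 22 genes of ubiquitin and the Cdc48 system, 2 were called higher and 2 lower, with a median of 0.09. Those higher were the polyubiquitin gene UBI4, at 0.73 ± 0.19 (edgeR adjusted p = 0.0253), and UBC5, of a ubiquitin-conjugating enzyme, at 0.72 ± 0.14 (adjusted p = 0.00719). Those lower were RPS31, at −1.19 ± 0.27 (adjusted p = 0.0127), and RPL40B, at −0.94 ± 0.28 (adjusted p = 0.0395), which encode ubiquitin fused to a ribosomal protein and went the way of the ribosomal protein share. UBI4, RPS31, RPL40A and RPL40B share the ubiquitin sequence, RPL40A and RPL40B are near copies and UBC5 has a close relative in UBC4, so reads may be split between them. CDC48, the segregase that hands substrates to the proteasome, was at 0.15 ± 0.14 (adjusted p = 0.47). Of the 4 genes of RPN4 regulators none was called, the highest being YAP1 at 0.36 ± 0.16 (edgeR adjusted p = 0.134). Without the libraries numbered 2, all 5 calls in these lists missed the threshold (adjusted p from 0.0507 to 0.213). None of the 44 genes of the 3 lists was called in 2SA against WT, where 0.0657 to 0.624% of all features were. None had an unadjusted p under 0.05 there in edgeR without a block, beside 2.81 to 6.56% of features. The pair block called none either. With it 4 of 18 assembly factors, 4 of 22 ubiquitin and Cdc48 genes and no regulator had an unadjusted p under 0.05 for the mean of both sugars. Of all features 24.1% did.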

How the data were processed

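The authors deposited 1 table of 12 columns with whole-number read counts, which are not normalized. Per the submitters' processing notes, Bowtie 0.12.2 aligned the reads to sacCer3. The counting program, strand setting and treatment of several matches were not given in the sources used here. The tests used R 4.3.3 and the quasi-likelihood method of edgeR 4.0.16 (TMM scaling, default filter with a minimum count of 10, all 12 libraries in 1 fit, 8 residual degrees of freedom). P-values were adjusted by Benjamini-Hochberg over 6085 features, and a call needs an adjusted p under 0.05 and a change over 1.5-fold, the thresholds of the design text. CPM are TMM-scaled, except those of RPD3 and of the mating-type and strain marker genes, which were scaled to the total count alone. Division by the length of the gene was made only where levels of genes are compared. SE and 95% intervals come from the F statistic. DESeq2 1.42.0 was an alternative, and the fit was tested on simulated data. Near copies were sought with BLAST+ 2.17.0 (80% identity over 100 bases).

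Over all features, the deviations of a WT library from its group mean correlated with those of the equally numbered 2SA library, with r of 0.654, 0.61 and 0.545 in glucose and 0.603, 0.847 and 0.799 in sucrose. Between sugars r ran from −0.195 to 0.479. The numbers thus pair WT with 2SA within a sugar, which the labels do not explain, and the pair block has 4 residual degrees of freedom. Replicates never agreed within sampling noise (the lowest chi-square per degree of freedom was 89.8). Values of every library are given for RPN4 and for the members with the largest and smallest sucrose difference of each structural group, and, chosen after seeing the data, for RPN3, RPN9 and SPG5 where they pass a threshold. The members and lists were chosen with earlier results of these data known.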

Additional observations from a re-analysis of the deposited data

How the results depend on the processing

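Of 138 counts of called members under alternatives, 137 were 0. The exception was the mean difference of sucrose from glucose with no fold minimum, with a count of 3 in edgeR without a block. With no fold minimum DESeq2 had 5 members there (PRE8, PUP2, RPN3, RPN5 and RPN9) and PRE8 alone in WT. Without the libraries numbered 2 edgeR had 0 for the mean. DESeq2 called 15.5% of all features for the mean with the fold minimum. Of 131 medians of the members, 128 moved by less than 0.133, the SD between replicates. Those that moved more were the sucrose medians without the libraries numbered 2, with 0.301 in WT, 0.294 in 2SA and 0.299 for the mean. Leaving out single libraries kept every count of called members at 0. It gave members' medians from −0.116 to 0.021 for 2SA against WT in glucose, −0.118 to 0.042 in sucrose and −0.094 to −0.008 for the mean. Sucrose medians then ran from 0.085 to 0.24 in WT, 0.096 to 0.241 in 2SA and 0.112 to 0.187 for the mean, and the interaction from −0.073 to 0.093.

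The replicate block as an additive term, planned beside the pair block, called no member in any comparison. With it 7 members had an adjusted p under 0.05 in edgeR for the mean sucrose difference, against 3 without. Calls rose over all features too, to 504 higher and 480 lower with the additive block from 464 and 298 without it. The share of all features at an adjusted p alone was not counted with that block, so the 7 have no background beside them. A pair block without the libraries numbered 2 was chosen after seeing the data and called no member. Of 522 values of single genes, 490 kept direction and side of the threshold and 12 changed sign, none of which passed a threshold. Single libraries left out gave RPN4 values of −0.303 to 0.168 for 2SA against WT in glucose, −0.759 to −0.068 in sucrose and −0.438 to −0.093 for the mean of both sugars, −0.423 to 0.323 for sucrose against glucose in WT and −0.698 to 0.049 for the interaction, and mean sucrose differences of −0.18 to 0.003 for PUP1 and −0.005 to 0.196 for RPT1. RPN4 in 2SA against WT in glucose was 0.168 without WT glucose 1 and 0.059 without 2SA glucose 3. RPN4 in sucrose against glucose in WT was −0.009 with the additive replicate block, −0.001 without WT glucose 2, −0.148 without WT glucose 3, −0.423 without WT sucrose 2 and −0.462 without all libraries numbered 2. Its interaction was 0.049 without WT sucrose 2. For the mean sucrose difference PUP1 was 0.003 without WT sucrose 2 and 0.116 without all libraries numbered 2, RPT1 was −0.005 without WT glucose 1, and RPN1 was 0.125 without all libraries numbered 2. Without several single libraries UBI4 and RPL40B lost their calls at values of 0.659 to 0.722 and −0.999 to −0.789, with edgeR adjusted p of 0.0533 to 0.0648 and 0.0533 to 0.0834. With 3 libraries per group, intervals and not depth limit these comparisons, since every member had at least 1271 counts in each library.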
